A study of Caenorhabditis elegans with 8 samples.

Results

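The histone genes of Caenorhabditis elegans were taken as every gene whose symbol is his- followed by a number, 72 of the 46928 gene identifiers counted in each library. By family they were 17 H2A, 17 H2B, 21 H3 and 16 H4 genes and 1 linker H1 gene. By kind, 66 were classed by name as replication-dependent core histone genes. A further 5 were replacement H3 genes of the H3.3 type (his-69, his-70, his-71, his-72 and his-74), and 1 was the linker gene his-24. Of the 66, 4 (his-35, his-37, his-41 and his-57) have introns and an annotated 3′ UTR, unlike the other genes of that kind. They remain in every count of that kind below. RNA was sequenced from material described as cells sorted out of L4 larvae of a wild-type genotype (N2) and of skn-1gf(lax188), whose allele makes SKN-1, a regulator of detoxification gene transcription, more active than normal. All animals of both genotypes carried daf-7p::gfp, a reporter driven by the promoter of a TGF-beta gene that is active mainly in the ASI pair of chemosensory neurons, and were grown at 20°C on the bacterial strain OP50. Each genotype had 4 libraries, each called a biological replicate in the labels, which say no more about their origin, so that p-values measure the spread between these libraries only. Large synchronised populations were dissociated and pooled for a cell sort, with DAPI to judge viability, and the material is labelled as neurons. The extraction step in the labels, however, speaks of homogenized animals, so it cannot be told from them whether each CPM below stands for RNA of sorted cells alone. The question that the series title and design text put is how SKN-1 activation changes expression in the ASI neurons.

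Core histones H2A, H2B, H3 and H4 form the nucleosome around which DNA is wrapped, and the linker histone H1 binds the DNA where it enters and leaves the nucleosome. Replication-dependent histone genes lie in clusters of near-identical, mostly intronless copies, are transcribed in S phase of dividing cells, and yield messages that end in a stem-loop in place of a poly(A) tail. Replacement H3 genes such as his-72 are made throughout the cell cycle, have polyadenylated messages, and supply H3.3 for the exchange of nucleosomes in cells that no longer divide, neurons included. How RNA was selected for sequencing is not given here. Its part in the levels of messages with and without a poly(A) tail, and in ratios between them, was not tested.

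Library depth ranged from 2976889 gene counts in skn-1gf replicate 4 to 10740970 in wild-type replicate 4. Wild-type replicate 2 stood apart from the other 7 libraries in measures taken over all genes, histone genes included. It lay at 202 on the first principal component, where the others lay between -88.3 and 18.2. Its ribosomal RNA genes took 32.8% of gene counts against 6.90% to 21.8% elsewhere, and its scaling factor was the lowest, at 0.658. Markers of the labelled cells were scarce. The 7 ASI markers held 0.00132% to 0.0195% of protein-coding counts. Of these, the chemoreceptor genes str-2 and str-3 were at 0 in 7 of 8 libraries each, while daf-28 reached 111 CPM in skn-1gf replicate 3. The 12 pan-neuronal markers held 0.0331% to 0.242%, and 9 body wall muscle markers held 0.895% to 3.41%. Lists of 19 germline and oocyte markers and 10 intestine markers held 0.486% to 0.999% and 0.230% to 2.65%. The transcript of skn-1 itself was at 295 ± 108 CPM (wild type) and 307 ± 68.6 CPM (skn-1gf; SD, n = 4; CPM relate a count to its library's total after TMM scaling), and the labels name no change in its amount to check against. In RNA from pooled cells or animals, fewer cells of a type and less RNA per cell cannot be told apart.

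Histone transcripts held 0.443% of protein-coding counts in wild-type replicate 3, 0.701% in replicate 1, 1.06% in replicate 4 and 1.81% in replicate 2. In skn-1gf they held 0.521%, 0.740%, 0.636% and 0.600%, in replicate order. The skn-1gf values all lay inside the wild-type range, and both the lowest and the highest library were wild type.

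Reads were spread very unevenly over the 72 genes. Altogether 15 genes were at 0 in all 8 libraries (3 H2A, 5 H2B, 4 H3 and 3 H4), 9 more had between 1 and 20 counts in all, and 40 had a count in every library. A count of 0 allows a share of protein-coding counts of up to 3.13e-05% in the deepest library and 0.000133% in the shallowest, from a floor of 3 counts that covers counting error only. By contrast, 7 genes held 75.4% of all histone counts: his-59 (H3, 14.96%), his-48 (H2B, 14.2%), his-64 (H4, 12.7%), his-62 (H2B, 11.7%), his-60 (H4, 8.46%), his-63 (H3, 7.01%) and his-61 (H2A, 6.40%). All 7 lie on chromosome IV, in 3 of the 22 runs of neighbouring histone genes.

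The runs differed in how much of them was counted. On chromosome IV the run of 4 genes his-59 to his-62 held 41.53% of histone counts, the pair his-63 and his-64 held 19.68%, and the run of 4 genes his-45 to his-48 held 15.53%. The run of 6 genes his-49 to his-54 on chromosome V had 1 count in all 8 libraries together. The run of 8 genes his-17 to his-22, his-27 and his-28 on the same chromosome had 5 members at 0 and 1.415% of histone counts, nearly all from his-18 and his-17. The run of 13 genes on chromosome II, which includes his-9 to his-16, had 3 members at 0 and 0.4372%.

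Counted reads went with how distinct a gene's symbol is in a second annotation. The Ensembl annotation gives 36 of the 72 genes a symbol that at least 1 other histone gene also bears, and 21 of these 36 had 20 counts or fewer in all. Of the other 36 genes, with a symbol of their own, 3 had 20 counts or fewer. Of the 15 genes at 0, 13 shared a symbol, and the others, his-39 and his-73, have short models of 204 and 141 bases. The number recorded for reads aligned to several places was 12.3% to 30.3% of that number and the uniquely aligned reads together. Unaligned reads are not in this base. Reads aligned to several places were not counted to any gene. A level of 0 for a histone gene with close copies thus says that no read was placed on it alone. How many reads each copy lost was not tested.

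**Figure D1:**
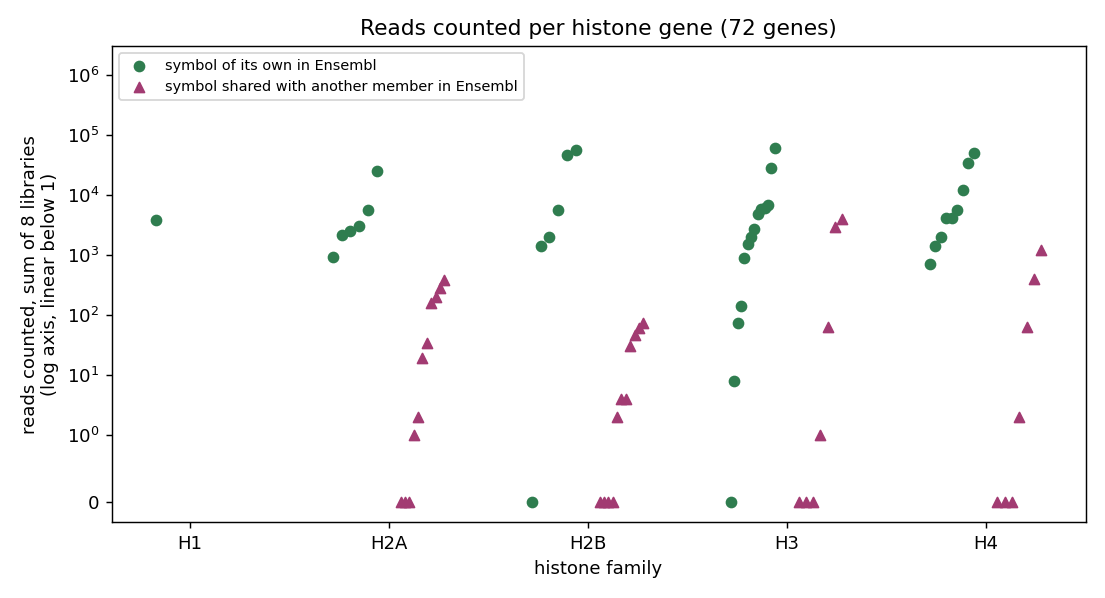
Reads counted on each of the 72 histone genes, summed over the 8 libraries (vertical axis, logarithmic, linear below 1), by family. Circles are genes with a symbol of their own in the Ensembl annotation and triangles are genes that share one: 13 of the 15 genes at 0 are triangles, and the genes with the most reads in each family are circles.

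Scaled per length, as CPM per kilobase of annotated exon, the highest histone levels in wild type were those of his-64 (3789), his-59 (3232), his-48 (2995), his-62 (2656) and his-60 (2417). In skn-1gf the same scale gave 1559 for his-64, 1805 for his-59, 2282 for his-48, 1658 for his-62 and 1175 for his-60. The order of these 5 genes differed between the genotypes, with his-48 highest in skn-1gf, and the library ranges of neighbours in the order overlapped in both genotypes. The replacement genes his-72 and his-74 were at 147 and 168 CPM per kilobase in wild type and at 264 and 182 in skn-1gf, below the 8 most abundant replication-dependent genes in both genotypes.

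Genotypes were compared over all genes, and the histone genes were read from that fit. After the low-count filter 12734 genes were tested, 39 histone genes among them, and 33 histone genes were left out: the 15 at 0 and 18 with at most 203 counts in all. None of the 39 passed an adjusted p of 0.05 (edgeR quasi-likelihood test, Benjamini-Hochberg over all genes tested), and neither did any other gene, so that the background share was 0%. An unadjusted p under 0.05 was reached by 518 genes in all. Of the 39 histone genes, his-72 was higher at that level, where 1.44% of all genes tested were, and his-45, his-64 and his-16 were lower, where 2.62% of all genes were. DESeq2 called 3 genes at its adjusted p and no histone gene among them.

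The log2 fold change, skn-1gf minus wild type, was negative for 29 of the 39 tested histone genes, where 46.3% of all genes tested had a negative value, and positive for 10, where 53.7% of all genes were. The median was -0.55 for the histone genes and 0.040 for all genes. Of the 34 replication-dependent genes tested 28 had a negative value, with a median of -0.63, and of the 4 replacement genes tested 1 had, with a median of 0.48. The 95% interval is built from the same test, so by construction it lay wholly on 1 side of 0 for the same 4 genes that passed the unadjusted level. The median distance from an estimate to the end of its interval was 1.14 on the log2 scale. In no tested histone gene were the libraries of the genotypes fully separated, where 1.15% of all genes had every skn-1gf library below every wild-type library and 1.01% had every skn-1gf library above. Among the untested genes, chosen after their values were seen, 2 H2B genes were separated in CPM. For his-29 (61 counts in all) every skn-1gf library was above wild type, and for his-44 (73 counts in all) every one was below. Counts were few, at 6, 3, 4 and 3 for his-29 in wild type and 2, 4, 1 and 0 for his-44 in skn-1gf. The share of all untested genes so separated was not computed.

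**Figure D2:**
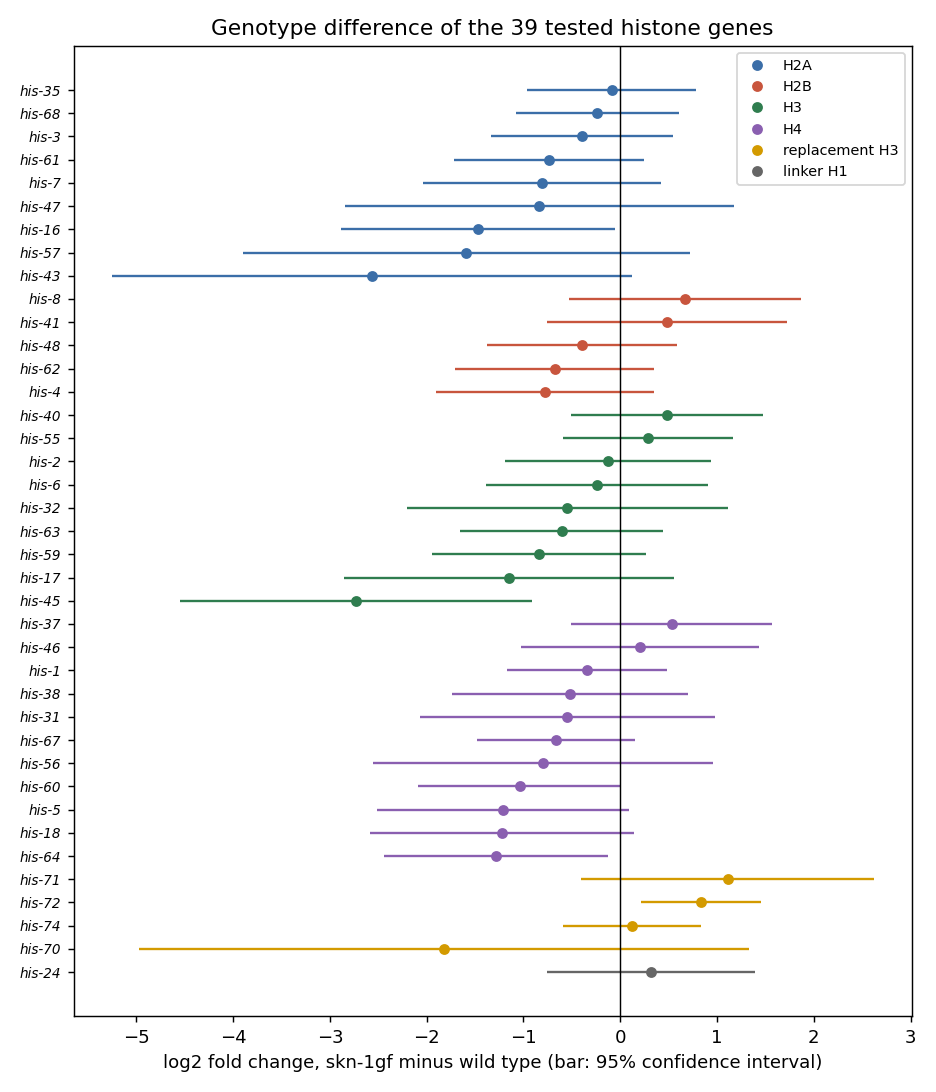
Log2 fold change (horizontal axis, skn-1gf minus wild type) of the 39 tested histone genes with its 95% confidence interval from the edgeR fit, by family. All 9 H2A genes lie left of 0, and of the 4 replacement H3 genes 3 lie right of it, with the interval of his-72 wholly above 0 and those of his-45, his-64 and his-16 wholly below.

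The H4 genes, whose product pairs with H3 at the core of the nucleosome, had 9 of 11 tested members with a negative log2 fold change and a median of -0.66. The most abundant, his-64, was at 599, 2647, 343 and 1139 CPM across wild-type replicates 1 to 4 and at 520, 620, 376 and 429 CPM in skn-1gf replicates 1 to 4. Wild-type replicates 2 and 4 were above all skn-1gf libraries and replicate 3 was below all of them. Its log2 fold change was -1.28 (SE 0.53; unadjusted p = 0.033 and adjusted p = 1.00 in the edgeR quasi-likelihood test with Benjamini-Hochberg adjustment), and -0.51 without wild-type replicate 2.

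The H4 gene his-60 was at 399, 1612, 269 and 737 CPM in wild type and at 394, 466, 308 and 298 CPM in skn-1gf. The groups overlapped in the same way, with 1 wild-type library lowest of all and 2 highest. Its log2 fold change was -1.04 (SE 0.48), and -0.35 without wild-type replicate 2. Next in level, his-67 was at 248 ± 148 and 157 ± 11.8 CPM (log2 fold change -0.66), and his-5 at 135 ± 136 and 58.02 ± 25.4 CPM (log2 fold change -1.21, or -0.24 if wild-type replicate 2 is left out). The H4 gene with introns, his-37, had a positive value of 0.53.

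The H3 genes, which encode the replication-dependent form of H3, had 7 of 9 tested members with a negative value and a median of -0.55. The gene with the most reads, his-59, was at 718, 2981, 438 and 1177 CPM in wild type and at 605, 879, 716 and 768 CPM in skn-1gf. Only wild-type replicates 2 and 4 were above all skn-1gf libraries, and replicate 3 was below all. Its log2 fold change was -0.84 (SE 0.51), and -0.062 without wild-type replicate 2. For his-63 the means were 582 ± 470 and 383 ± 78.8 CPM (log2 fold change -0.61, or 0.092 if wild-type replicate 2 is left out), and for his-2 and his-6 they were 114 ± 98.6 and 99.8 ± 89.2 CPM in wild type and 105 ± 27.9 and 84.6 ± 38.01 CPM in skn-1gf. The log2 fold changes of his-2 and his-6, -0.13 and -0.24, were 0.65 and 0.58 without wild-type replicate 2.

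The H3 gene his-45 had the lowest log2 fold change of the histone genes tested. Its level was 24.8, 347, 11.5 and 83.7 CPM in wild type and 22.5, 18.6, 11.4 and 17.6 CPM in skn-1gf. Wild-type replicates 2 and 4 were high, wild-type replicates 1 and 3 lay near the skn-1gf libraries, and the groups overlapped. The log2 fold change was -2.73 (SE 0.84; unadjusted p = 0.0066 and adjusted p = 1.00, edgeR with Benjamini-Hochberg adjustment). It was -1.18 without wild-type replicate 2, and -1.51 with limma-voom (unadjusted p = 0.21, limma-voom). Without the low-count filter, where 159 genes were called in place of 0, his-45 was the only histone gene called (log2 fold change -2.71, adjusted p = 2.55e-06, edgeR with Benjamini-Hochberg adjustment). Its neighbours in the same run had values of 0.21 for his-46 (H4), -0.84 for his-47 (H2A) and -0.39 for his-48 (H2B). In Ensembl, his-45 bears the same symbol as his-55 (H3), whose log2 fold change was 0.29. Reads that aligned to both copies were not counted to either.

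The 9 tested H2A genes all had a negative value, with a median of -0.81. H2A forms a dimer with H2B on the outside of the nucleosome core. The gene with the most reads, his-61, was at 330, 1022, 167 and 604 CPM in wild type and at 316, 366, 302 and 293 CPM in skn-1gf. Again wild-type replicates 2 and 4 were above every skn-1gf library and replicate 3 below every one (log2 fold change -0.73, SE 0.45). The level of his-16, from the run on chromosome II, was 12.1, 47.7, 7.67 and 22.8 CPM in wild type and 9.94, 8.24, 4.96 and 9.36 CPM in skn-1gf, so that 3 wild-type libraries lay above all skn-1gf libraries and replicate 3 lay among them. Its log2 fold change was -1.47 (SE 0.65; unadjusted p = 0.043 and adjusted p = 1.00, edgeR with Benjamini-Hochberg adjustment), and -0.80 without wild-type replicate 2. For his-68, his-3, his-7 and his-43 the values were -0.24, -0.40, -0.81 and -2.57. The first 3 of these were above 0 without wild-type replicate 2, at 0.12, 0.11 and 0.034. The groups of his-43 were at 11.2 ± 14.3 and 1.90 ± 1.95 CPM, and its value was -1.17 without wild-type replicate 2.

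The H2B genes had 3 of 5 tested members with a negative value and a median of -0.39. The level of his-48 was 790, 2085, 383 and 1199 CPM in wild type and 621, 1003, 830 and 941 CPM in skn-1gf. Every skn-1gf library lay between wild-type replicates 3 and 4. The log2 fold change was -0.39 (SE 0.45), and 0.11 without wild-type replicate 2. The other abundant H2B genes, his-62 and his-4, had values of -0.68 and -0.78, which were near 0 without that library, at -0.066 and -0.051.

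The H2B gene his-8 differed from the rest of its run in wild-type replicate 2. It was at 35.5, 9.01, 12.2 and 47.1 CPM in wild type and at 55.8, 25.7, 55.7 and 28.4 CPM in skn-1gf, with wild-type replicate 2 the lowest of all 8 libraries. Its neighbours his-5, his-6 and his-7 each had that library highest of all. Its log2 fold change was 0.67 (SE 0.55), and it is 1 of 11 histone genes that another annotated gene overlaps, as are his-4, his-16, his-24, his-37, his-41, his-57 and his-72. Without a stated strand setting, reads of overlapping genes cannot be told apart.

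Summed over family members, replication-dependent core histone transcripts were at 4823, 17090, 2755 and 7928 CPM across wild-type replicates 1 to 4 and at 4426, 5586, 4973 and 4714 CPM in skn-1gf replicates 1 to 4. The wild-type libraries spanned 6.20-fold and the skn-1gf libraries 1.26-fold, and the skn-1gf range lay inside the wild-type range. The mean log2 sum was lower in skn-1gf by 0.41, within a pooled SD of 0.80. By family the difference of mean log2 sums, skn-1gf minus wild type, was -0.37 for H2A, -0.24 for H2B, -0.32 for H3 and -0.70 for H4. Each was smaller than the pooled SD between libraries, which was 0.74, 0.76, 0.86 and 0.82 in the same order.

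**Figure D3:**
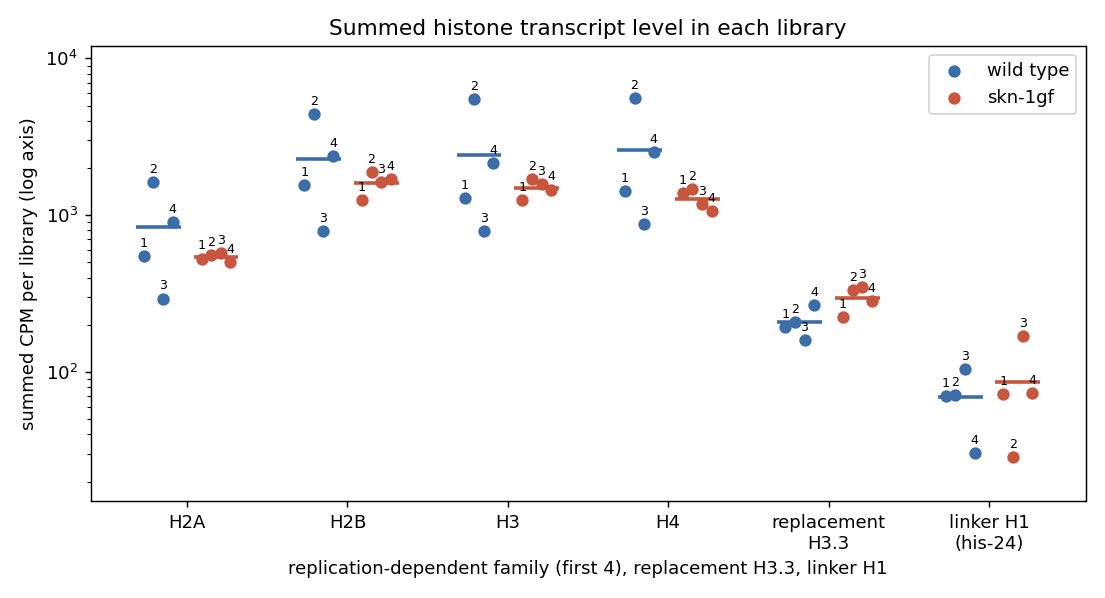
Summed CPM (vertical axis, logarithmic) of the replication-dependent H2A, H2B, H3 and H4 genes, the 5 replacement H3.3 genes and the linker gene his-24 in each library. Points are libraries numbered by replicate and lines are group means: in each core family wild-type replicate 2 is the highest and wild-type replicate 3 the lowest library.

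The replication-dependent genes moved together from library to library in wild type. In 26 of the 34 tested, or 76.5%, the wild-type libraries stood in the order 2, 4, 1, 3 from high to low, where 14.7% of all genes tested did. The log2 SD between libraries was larger in wild type than in skn-1gf for 29 of the 34, or 85.3%, where 46.6% of all genes had it so. The median log2 SD of the 34 was 1.13 in wild type and 0.46 in skn-1gf, and over all genes tested it was 0.76 and 0.78. Wild-type replicate 2 was the highest of the 8 libraries for 28 of the 34, where it was the highest for 24.7% of all genes. Its level over the mean of the other 3 wild-type libraries ran from 0.285 (his-8) to 9.74 (his-32), with a median of 3.41. Over all genes tested that median was 0.859.

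Without wild-type replicate 2 the 34 replication-dependent genes had 15 negative and 19 positive log2 fold changes, with a median of 0.049, and 13 had the other sign than with all libraries. The summed log2 difference was then 0.039. The 4 replacement genes tested kept their signs, with a median of 0.45 in place of 0.48. The negative median and the lower sum of the replication-dependent genes thus rested on 1 wild-type library. The 15 genes still negative without it included his-45 (-1.18) and his-64 (-0.51).

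**Figure D4:**
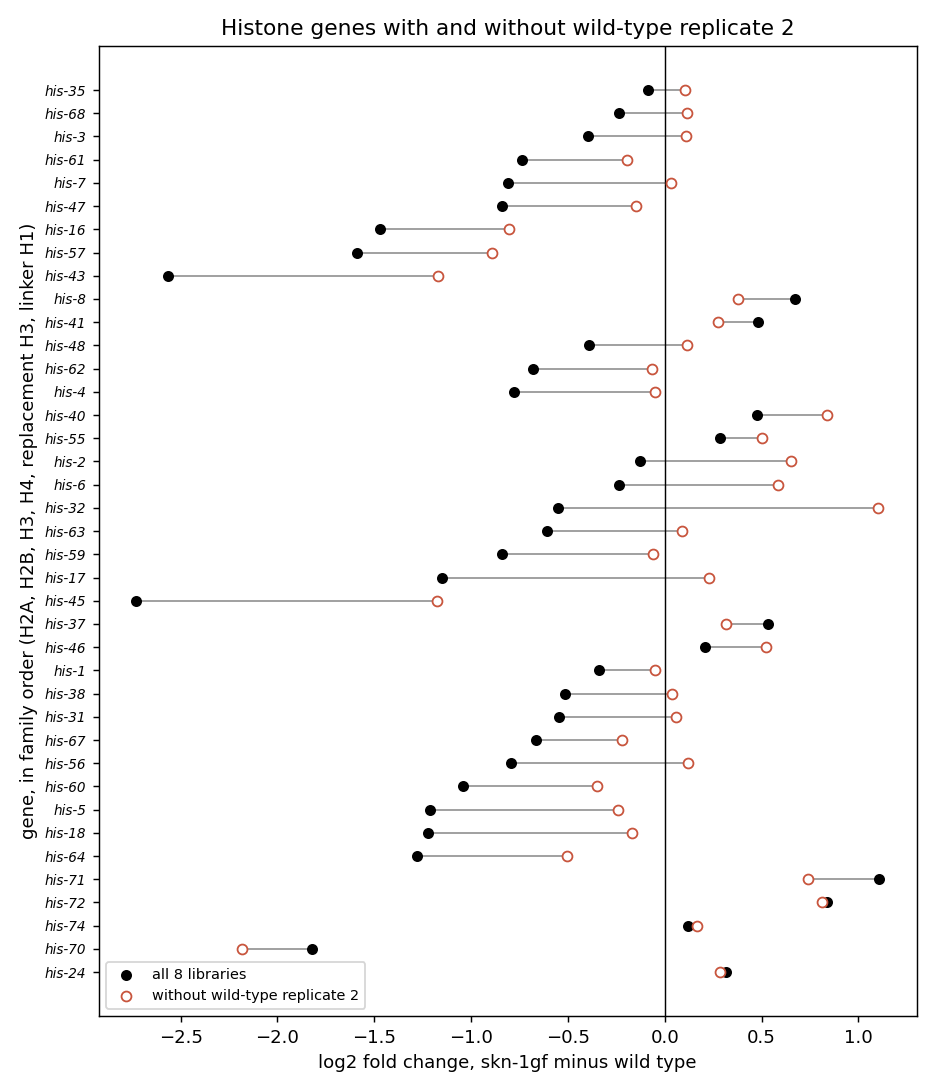
Log2 fold change (horizontal axis, skn-1gf minus wild type) of the 39 tested histone genes with all 8 libraries (filled) and without wild-type replicate 2 (open). Most replication-dependent genes shift to the right, 13 of them across 0, while the replacement gene his-72 stays in place.

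The 5 replacement H3 genes summed to 193, 209, 161 and 266 CPM in wild type and to 223, 334, 350 and 281 CPM in skn-1gf. Skn-1gf replicate 1 lay below wild-type replicate 4 and the other 3 skn-1gf libraries above every wild-type library. The difference of mean log2 sums was 0.52, or 1.44-fold, against a pooled SD of 0.30, and it ran from 0.41 to 0.69 when each library was left out in turn. Wild-type replicate 2, highest for the core families, did not stand out here.

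Of these genes, his-72 was at 90.4, 90.9, 85.3 and 109 CPM in wild type and at 102, 173, 231 and 166 CPM in skn-1gf. The wild-type libraries lay close together, 3 skn-1gf libraries were above all of them, and skn-1gf replicate 1 was below wild-type replicate 4. The log2 fold change was 0.84 (SE 0.28, 95% interval 0.22 to 1.46), or 1.79-fold, with an unadjusted p of 0.012 and an adjusted p of 1.00 (edgeR quasi-likelihood test, Benjamini-Hochberg). It was positive in every alternative computed, from 0.68 to 1.05, and its adjusted p (edgeR, Benjamini-Hochberg) was lowest, at 0.396, when both libraries numbered 2 were left out.

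The other replacement genes were less clear. The level of his-71 was 13.6, 2.53, 16.6 and 9.07 CPM in wild type and 37.2, 7.97, 32.4 and 12.7 CPM in skn-1gf, with a log2 fold change of 1.11 (SE 0.69). Wild-type replicate 2 was the lowest library, and skn-1gf replicates 2 and 4 lay within the wild-type range. The level of his-74 was 97.3 ± 35.2 and 106 ± 31.4 CPM (log2 fold change 0.12, and -0.12 without skn-1gf replicate 2). The neighbours his-69 and his-70 were rare. The first had 2, 69, 0 and 2 counts in wild type and 0, 1, 0 and 0 in skn-1gf, so that nearly all its reads came from wild-type replicate 2, and it was not tested. The level of his-70 was 3.40, 0.316, 1.42 and 6.64 CPM in wild type and 0, 1.22, 0 and 2.25 CPM in skn-1gf, with a log2 fold change of -1.82 (SE 1.45), which ran from -2.69 to -1.03 when each library was left out in turn.

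**Figure D5:**
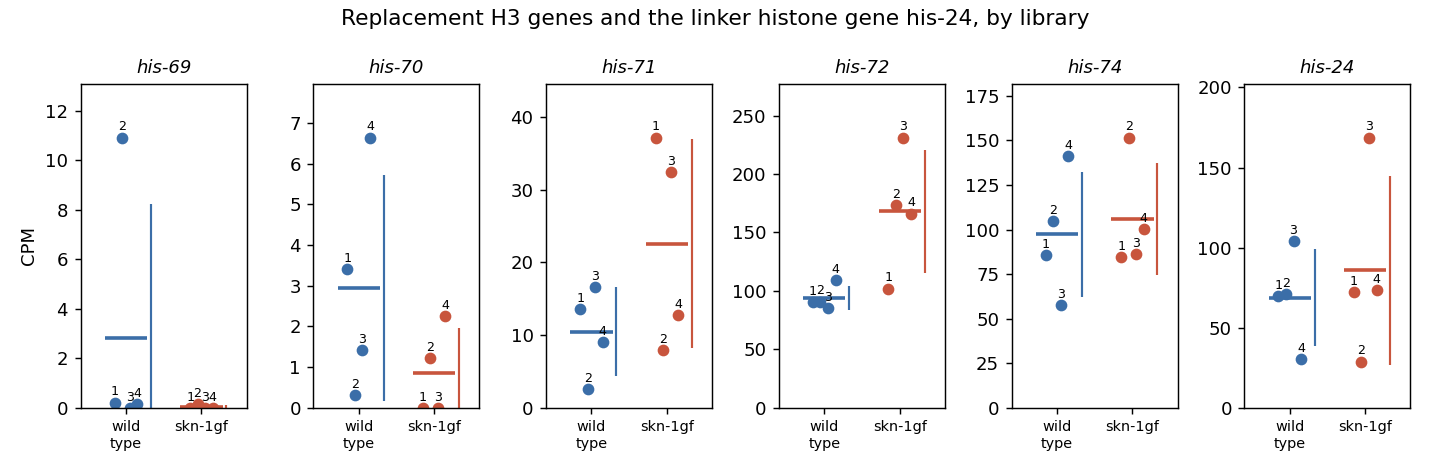
CPM (vertical axes, each from 0) of the 5 replacement H3 genes and the linker gene his-24 in each library, numbered by replicate. Thick lines are means of 4 libraries and thin lines the mean ± SD, drawn no lower than 0: for his-72, 3 skn-1gf libraries lie above all wild-type libraries, and the reads of his-69 come from wild-type replicate 2.

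Replacement genes made up 13.1%, 3.68%, 16.95% and 11.1% of all H3 reads in the wild-type libraries, in replicate order, and 15.2%, 16.5%, 18.1% and 16.2% in those of skn-1gf. Wild-type replicate 2 was far below the rest, and wild-type replicate 3 lay within the skn-1gf range. The difference of mean log2 ratios, replacement over replication-dependent H3, was 0.84, against a pooled SD of 0.75, and 0.33 without wild-type replicate 2. This ratio is taken within a library and does not depend on the scaling between libraries, but it takes the uncounted reads of near-identical copies as they are.

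The linker histone gene his-24 was at 69.8, 70.8, 104 and 30.4 CPM in wild type and at 72.3, 28.8, 169 and 73.4 CPM in skn-1gf. The groups overlapped over most of their range, and replicate 3 was the highest library in each genotype. The log2 fold change was 0.32 (SE 0.50), and -0.25 without skn-1gf replicate 3.

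The gene models divided the replication-dependent genes in another way. In RefSeq, 62 of the 66 have models that consist of coding sequence alone, and the other 4 (his-35 and his-57, H2A; his-37, H4; his-41, H2B) have introns and an annotated 3′ UTR. Summed, these 4 were at 91.5, 96.6, 107 and 78.6 CPM in wild type and at 163, 53.6, 152 and 69.2 CPM in skn-1gf. Wild-type replicate 2 did not stand apart in this sum, at 1.04 times the mean of the other wild-type libraries. The sum of all replication-dependent genes was at 3.31 times. The 4 members differed, however. By the same measure his-35 and his-57 were at 1.66 and 3.51 times, and his-37 and his-41 at 0.538 and 0.597 times. Of all 31 tested histone genes with coding-only models 27 had a negative log2 fold change and 26 were highest in wild-type replicate 2. Of the 8 tested with introns and a 3′ UTR, which include the replacement genes his-71, his-72 and his-74 and the linker gene his-24, 2 were negative and 2 were highest in that library. A coding-only model leaves out reads from the untranslated parts of a message, and the labels do not say whether the authors' counting used these models.

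Genes that act with the histone genes showed no called difference either. Of 11 histone genes with other names (the H2A variant htz-1, the centromeric H3 genes hcp-3 and cpar-1, the sperm H2A gene htas-1 and the linker genes hil-1 to hil-7), 10 were tested, 0 were called, and the median log2 fold change was -0.091. The smallest p were those of hcp-3, at 92.5 ± 38.4 and 66.5 ± 25.3 CPM (log2 fold change -0.48), and hil-7, at 11.6 ± 9.93 and 23.5 ± 37.8 CPM (1.01, and -1.38 without skn-1gf replicate 3). Of 5 genes of histone message processing, 0 were called and the median was -0.023. They include cdl-1, the stem-loop binding protein, at 127 ± 22.1 and 128 ± 21.1 CPM, and csr-1 and ekl-1 of the small RNA pathway linked to histone message maturation in this species, at log2 fold changes of -0.14 and -0.20, each of which crossed 0 with 1 library left out. Of 13 histone chaperones, 0 were called and the median was -0.065. The lowest p among them were those of hmg-3, a subunit of the FACT complex (-0.40), and unc-85, an Asf1 homologue (-0.34, and 0.058 without wild-type replicate 2).

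Of 39 genes of the S phase machinery tested, such as replication helicase, polymerase and cyclin genes, 25 had a negative value, 0 were called, and the median was -0.11. The named ones are psf-2, a subunit of the GINS replication complex (54.8 ± 37.9 and 32.2 ± 17.8 CPM, log2 fold change -0.77, or -0.16 if wild-type replicate 2, at 109.9 CPM, is left out), and cyd-1, cyclin D (4.64 ± 2.71 and 10.8 ± 7.22 CPM, log2 fold change 1.22). In wild-type replicate 2 the summed CPM of the 39 was 1.15 times the mean of the other wild-type libraries. That library was highest for 9 of the 39. The replication-dependent histone genes stood at 3.31 times in the same library. Both ratios use the scaling factors. As a share of protein-coding counts, the 39 held 0.553%, 0.502%, 0.540% and 0.632% in wild-type replicates 1 to 4, lowest in replicate 2.

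Markers of other cell types varied between the same libraries. The 12 sperm markers summed to 232, 1025, 88.2 and 536 CPM in wild type and to 168, 145, 30.3 and 219 CPM in skn-1gf, with wild-type libraries in the same order as for the core histone genes. Of the 12, 8 were tested and all 8 had a negative log2 fold change (median -1.96, 0 called), and msd-2 was at 0 in every library. The 10 intestine markers and 8 cuticle markers were also high in wild-type replicate 2. Their summed CPM were 2.95 and 2.62 times the mean of the other wild-type libraries. Those of body wall muscle, germline and oocyte, and pan-neuronal markers were at 1.79, 1.29 and 0.609 times. As a share of protein-coding counts, intestine markers held 1.14%, 2.02%, 0.692% and 0.861% in wild-type replicates 1 to 4. The 19 germline and oocyte markers held 0.773%, 0.766%, 0.721% and 0.844%. Single markers differed, with elt-2 of the intestine list at 0.158 CPM in wild-type replicate 2, its lowest library. In the skn-1gf libraries, where the core histone sum spanned 1.26-fold, the intestine markers ran from 1849 to 24001 CPM. The part of these cell types, and of the ribosomal RNA share of wild-type replicate 2, in the histone values was not tested. Of the ASI markers, daf-7, whose promoter drives the sort reporter, was at 4.56 ± 3.76 and 20.3 ± 17.4 CPM, a log2 fold change of 2.15 (SE 1.01). All 4 ASI markers tested had a positive log2 fold change, with a median of 2.27, and 0 were called.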

How the data were processed

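The authors deposited whole-number read counts per gene, 1 file per library. Per the submitters' processing notes the build was ce10 and the tools were R 3.5.2, DESeq2, HTSeq 2.0.2 and STAR 2.7.6a. Strand setting, annotation release and duplicate handling: not given in the sources used here. Of 46928 identifiers, 46919 were matched to symbols in a RefSeq table of the assembly WBcel235, used for names, model lengths and neighbours only. No coordinate is given because the builds differ. Family and kind were assigned by gene name. Of the coding-only models of H4 genes all 15 have 312 bases, and of those of H2A genes all 15 have 384. Those of H2B genes have 369 or 372 bases, except his-39 with 204. Those of H3 genes have 384, 405 or 411, except his-73 with 141. These short genes are counted among the 66 replication-dependent genes and were at 0 in every library. The assignment was not checked against protein sequence.

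Reads without a feature were 2.76% to 14.4% of those uniquely aligned and stayed out of library sizes. The members, lists and tests were chosen with earlier results of these data known.

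The test was that of edgeR 4.0.16 on counts, with R 4.3.3 (quasi-likelihood test, filterByExpr with a minimum count of 10 and total of 15, TMM scaling, genotype alone, Benjamini-Hochberg over 12734 genes, threshold 0.05). The biological coefficient of variation was 0.71. Named are the replacement and linker genes, the 4 most abundant replication-dependent genes of each family, the 5 tested histone genes with the smallest p in each direction, 2 genes per related list, skn-1 and daf-7; other histone genes stand as context. Alternatives were DESeq2 1.42.0, limma-voom (limma 3.58.1), other scalings, no filter or a stricter one (1 CPM and 10 counts in 4 libraries), protein-coding genes only, a replicate block and each library left out.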

Additional observations from a re-analysis of the deposited data

Results flagged for a closer look

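In 6 of 90 groups of 4 libraries examined (6.67%), 1 library lay far from the other 3 relative to the whole range of its group. The cutoff flags about 1 in 20 groups of independent, normally distributed values. CPM with zeros, from genes that vary together, are not such values, so that rate cannot be set against the share flagged. A group with a count in only 1 library is always flagged. Of the 6 flags, 2 were in wild-type replicate 2. For his-69 (replacement H3) wild-type replicate 2 was at 10.9 CPM where the other wild-type libraries were at 0 to 0.213, and skn-1gf replicate 2 was at 0.135 CPM, from 1 count, where the other skn-1gf libraries were at 0. For his-43 (H2A) wild-type replicate 2 was at 32.4 CPM and the others at 0.994 to 5.85. In skn-1gf replicate 3, his-3 (H2A) was at 63.03 CPM with the others at 40.8 to 42.1, his-6 (H3) at 142 CPM with the others at 63.8 to 68.9, and hil-7 (a linker histone gene) at 79.9 CPM with the others at 0.540 to 9.36.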

How the results depend on the processing

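Across 20 alternatives, 130 of 136 values that answer a comparison stayed within 1.5 times the reported count or within the spread between libraries. Counts of called genes that stayed at 0 are among those kept. The spread was the pooled SD, which includes wild-type replicate 2, so a value could change sign and still be kept. The replication-dependent sum did so, from -0.41 to 0.039 without wild-type replicate 2, against a pooled SD of 0.80. The tally is therefore no measure of how stable the directions were. For the named genes 613 of 647 values kept their sign and side of the threshold and 33 had the other sign. With all 8 libraries the number of genes called was 0, and it was 3 with DESeq2 and 159 without the low-count filter, where 1 histone gene, his-45, was called at -2.71. The sign changed with limma-voom for his-2 (0.19), his-6 (0.020) and hil-7 (-0.66), and with total counts in place of scaling factors for skn-1 (-0.012). Leaving out each library in turn gave 16 to 32 tested histone genes with a negative value and medians from -0.86 to 0.10, with the lowest count and the highest median without wild-type replicate 2. In these fits the named genes whose sign changed ranged from -0.25 to 0.60 (his-24), -0.12 to 0.36 (his-74), -0.51 to 0.12 (his-68), -0.65 to 0.11 (his-3), -1.11 to 0.034 (his-7), -0.67 to 0.11 (his-48), -0.89 to 0.092 (his-63), -0.42 to 0.65 (his-2), -0.54 to 0.58 (his-6), -1.38 to 1.64 (hil-7), -0.45 to 0.021 (ekl-1), -0.43 to 0.049 (csr-1), -0.53 to 0.058 (unc-85) and -0.081 to 0.31 (skn-1). With both libraries numbered 2 left out, an alternative chosen after seeing the data, 15 tested histone genes had a negative value, 16 having gone from negative to positive and 2 the other way. Among the named genes the sign changed for his-74 (-0.080), his-68 (0.064), his-3 (0.16), his-7 (0.20), his-48 (0.0037), his-4 (0.022), his-2 (0.77) and his-6 (0.69). The causes were not tested.

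Libraries with the same number correlated in their deviations from the genotype means, across genes, at -0.014, 0.064, 0.51 and 0.059, so the numbers were not taken as pairs. With the replicate number as a block 0 genes were called, 26 of 39 histone genes had a negative value with a median of -0.28, and the sign changed for his-2 (0.21), his-6 (0.038) and his-32 (0.44). The precision is limited by 4 libraries per genotype: the interval of a typical histone gene reached 1.14 to either side on the log2 scale.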

Other observations

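Reads were also set side by side for neighbouring H3 and H4 genes. These ratios were chosen after their values were seen and are given as a description, with no test. Reads of his-63 (H3) over those of his-64 (H4) were 0.515, 0.471, 0.577 and 0.507 in the wild-type libraries, in replicate order, and 0.596, 0.798, 0.971 and 0.840 in those of skn-1gf. Every skn-1gf library was above every wild-type library, wild-type replicate 2 included. For his-40 (H3) over his-38 (H4) the ratios were 1.28, 0.922, 1.49 and 1.14 in wild type and 2.42, 1.87, 2.33 and 1.96 in skn-1gf, again with no overlap.

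Of the 9 such H3 and H4 pairs with both genes tested, 8 had a higher mean ratio in skn-1gf, the groups were fully separated in 2 and overlapped in the others, and his-45 over his-46 had the lower mean in skn-1gf. Over 6421 pairs of neighbouring protein-coding genes with a count in every library, the ratio separated the genotypes, in either direction, in 4%. Over all replication-dependent genes, summed H3 over summed H4 CPM was 0.906, 0.983, 0.892 and 0.849 in wild type and 0.896, 1.16, 1.35 and 1.38 in skn-1gf, where skn-1gf replicate 1 lay within the wild-type range and the other 3 libraries above it. Of the 5 H2B and H2A pairs tested, 4 had a higher mean ratio in skn-1gf and 0 were fully separated. The H3 models have 411 bases and the H4 models 312, and the ratios are not scaled for length.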
